A study of Mus musculus with 15 samples.

Results

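The 10 genes described here handle the organic osmolytes of the mouse kidney. They cover the synthesis and breakdown of sorbitol (Akr1b3, Sord), the uptake of myo-inositol (Slc5a3, Slc5a11), the uptake and synthesis of betaine (Slc6a12, Chdh), the uptake of taurine (Slc6a6), the making and breakdown of glycerophosphocholine (Pnpla6, Gpcpd1) and the transcription factor Nfat5. They were picked by gene symbol, 1 row each, from a table of 25030 genes, and all 10 passed the filter on low values. The table holds bulk RNA sequencing of 15 kidney libraries from wild-type male mice of the strain labelled C56BL/6N. Of these, 5 came from the microdissected inner medulla (IM), 5 from the outer medulla (OM) and 5 from the cortex. All groups share genotype, strain and sex, no animal was treated according to the labels, and age is not given in the sources used here. The title of the study names expression along the axis from cortex to medulla and the tissue osmolality gradient as its subject, and the comparisons below follow that axis.

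Cells of the renal medulla live in a salt- and urea-rich fluid and hold their volume by storing small neutral solutes, the organic osmolytes, in place of salt. Sorbitol is made inside the cell from glucose, glycerophosphocholine is cut from membrane phospholipid, and myo-inositol, betaine and taurine are mostly brought in by sodium-coupled transporters. The factor NFAT5, also called TonEBP, binds a DNA element named TonE and switches on several of these genes when the medium turns hypertonic; Akr1b3, Slc5a3, Slc6a12 and Slc6a6 are textbook targets.

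The promoter stretches that follow show where letters of the NFAT5 element do and do not stand in windows of Slc6a12, Pnpla6 and Sord. They are RefSeq sequences of the build GRCm38.p6, read on the strand of the gene, and capitals mark a match to TonE, an element of 11 letters that begins with TGGAAA. RefSeq windows of 250 bases before to 50 after a start were matched for 7 of the 10 genes, 15 windows in all. Akr1b3, Slc6a6 and Gpcpd1 had no window and were not scanned. Slc6a12, Pnpla6 and Chdh had several windows each, some of them overlapping, so the windows are not separate genes. The first line is chr6:121342324-121342573 (plus strand), just before 1 of the annotated starts of Slc6a12, with the match beginning 75 bases before that start. The second is chr8:3515459-3515487 (plus strand) at Pnpla6, before the annotated start at 3515636 but after another at 3515411. The match there lies on the opposite strand, so that the capitals read as its reverse complement. The third is chr2:122234589-122234748 (plus strand) before Sord, a window with no match, shown for comparison.
Slc6a12: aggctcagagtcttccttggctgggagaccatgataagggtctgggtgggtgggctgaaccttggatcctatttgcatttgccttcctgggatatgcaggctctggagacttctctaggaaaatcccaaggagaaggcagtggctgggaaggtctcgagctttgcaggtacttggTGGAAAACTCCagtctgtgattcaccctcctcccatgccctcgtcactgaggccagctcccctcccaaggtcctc
Pnpla6: ctgaatggtACGAGTTTCCAtcgaccgag
Sord: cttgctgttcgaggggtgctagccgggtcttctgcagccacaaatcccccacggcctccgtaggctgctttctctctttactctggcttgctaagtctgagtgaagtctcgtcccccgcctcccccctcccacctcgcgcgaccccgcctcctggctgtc
On both strands, TonE was found in 2 of the 15 windows of the osmolyte genes, against 4.96% of all 32851 windows of the same length. The 6 letters TGGAAA, which are part of TonE, stood in 4 of the 15 windows and in 21.4% of all windows. The windows of Nfat5, Slc5a3 and Slc5a11 held neither. A match describes letters only, and a window without one says nothing of binding elsewhere.

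A second pair of sequences bears on how the values of Akr1b3 can be read. Gm6644 is annotated in GENCODE M21 as a processed pseudogene on chromosome 1, whereas Akr1b3 lies on chromosome 6. Of 951 coding bases of Akr1b3, 948 are identical in Gm6644 (99.68%). The 3 differences are A536G, T630C and G841C, with the base of Akr1b3 first and positions counted from 1 at the first coding base. The stretch from position 501 to 665 holds the first and second of these, in capitals.
Akr1b3: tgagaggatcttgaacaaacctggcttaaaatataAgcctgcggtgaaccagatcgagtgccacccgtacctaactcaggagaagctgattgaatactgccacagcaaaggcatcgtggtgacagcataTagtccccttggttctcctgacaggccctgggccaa
Gm6644: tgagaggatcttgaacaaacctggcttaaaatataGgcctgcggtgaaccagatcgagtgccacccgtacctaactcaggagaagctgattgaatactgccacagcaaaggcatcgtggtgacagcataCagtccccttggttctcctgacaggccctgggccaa
In the table the rows of the gene and the copy held the same number of reads in 14 of the 15 libraries and differed by 1 read in the other. Reads of Akr1b3 and Gm6644 can therefore not be told apart here, and every value of Akr1b3 below is a value of the pair, counted in both rows.

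Values are TPM (transcripts per 1000000), which adjusts for gene length, so that levels of different genes can be compared. Read totals per library recovered from the table ran from 16264486 to 25195553. Differences between zones are on the scale of log2(TPM + 1), with the standard error (SE) and the adjusted p of limma, fitted over 15052 genes, and a gene was called at an adjusted p under 0.05. Whether each library stands for its own animal is not stated in the labels, so the p-values reflect variation among the sequenced libraries, part of which may be technical. On the TPM scale the median gene was higher by 0.51 in IM over OM, by 0.11 in OM over cortex and by 0.65 in IM over cortex. After median-ratio scaling, which sets the typical gene level between libraries, these medians were 0.02, -0.02 and 0.03, and results that differ between the scales are given on both. In bulk tissue, fewer cells of a type and less RNA per cell cannot be told apart.

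Summed levels of cell type markers differed between the zones. The summed level of 6 convoluted proximal tubule markers was 670 to 1420 TPM in IM, 4113 to 5458 TPM in OM and 7200 to 8596 TPM in cortex, and that of 5 straight proximal tubule markers was 444 to 1600, 3079 to 3926 and 1169 to 2301 TPM in the same order. The 6 principal cell markers summed to 8242 to 13261 TPM in IM, 899 to 1275 in OM and 572 to 718 in cortex, and the 6 thin limb markers to 4671 to 7933, 403 to 663 and 55.2 to 116 TPM. The 5 thick ascending limb markers overlapped between IM (2688 to 5612 TPM) and OM (3123 to 6385 TPM), with medians of 4721 and 5338 TPM, so RNA of that outer segment was present in the IM libraries. The 6 urothelium markers summed to 820 to 1026 TPM in IM, 10.98 to 78.1 in OM and 1.503 to 8.75 in cortex, and the 5 endothelium markers to 1257 to 1705, 289 to 356 and 161 to 186 TPM. OM library 1 stood apart, with 78.1 TPM of the urothelium markers against 10.98 to 20.2 TPM in the other OM libraries. It also gave the low end of the OM thick ascending limb range, 3123 TPM against 5306 to 6385 TPM in the others. No marker of these lists was at 0 in a whole zone. The sums were carried unequally by their genes, and single genes did not all follow their list. Psca alone had a mean of 778 TPM in IM in the urothelium list. The principal cell marker Hsd11b2 had means of 203, 161 and 188 TPM in IM, OM and cortex. The endothelium marker Kdr had 16.4, 15.2 and 12.9 TPM. In the thick ascending limb list, Cldn10 was higher in IM than in OM (506 and 279 TPM) and Egf lower (365 and 747 TPM). The part of these cell types in the results below was not tested.

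The 10 genes did not move as 1 block. In IM against OM, 5 were called higher (Akr1b3, Slc5a3, Slc6a12, Pnpla6, Nfat5) and 4 lower (Sord, Slc5a11, Slc6a6, Chdh), while Gpcpd1 was not called. Among all tested genes, 66.4% were called higher and 17.2% lower in that comparison. In OM against cortex, 5 were called higher (Slc5a3, Slc6a12, Slc6a6, Nfat5, Chdh) and 0 lower, with 28.3% and 6.3% of all genes. In IM against cortex, 5 were called higher and 3 lower (Sord, Slc5a11, Slc6a6), with 70.2% and 16% of all genes. The 0 lower in OM against cortex was also 0 at an unadjusted limma p under 0.05 on the TPM scale, and 2 (Sord, Slc5a11) at that p after scaling. With 10 genes, these shares are set beside the background and nothing particular to the set is read from them. After median-ratio scaling, 5 were higher and 5 lower in IM against OM, with 37.9% and 36.5% of all genes. The same counts were 3 and 0 in OM against cortex, with 16.5% and 17%, and 5 and 5 in IM against cortex, with 40.1% and 38.5%. The median log2 difference of the 10 genes on the TPM scale was 0.41 in IM against OM, 0.29 in OM against cortex and 0.53 in IM against cortex.

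**Figure D1:**
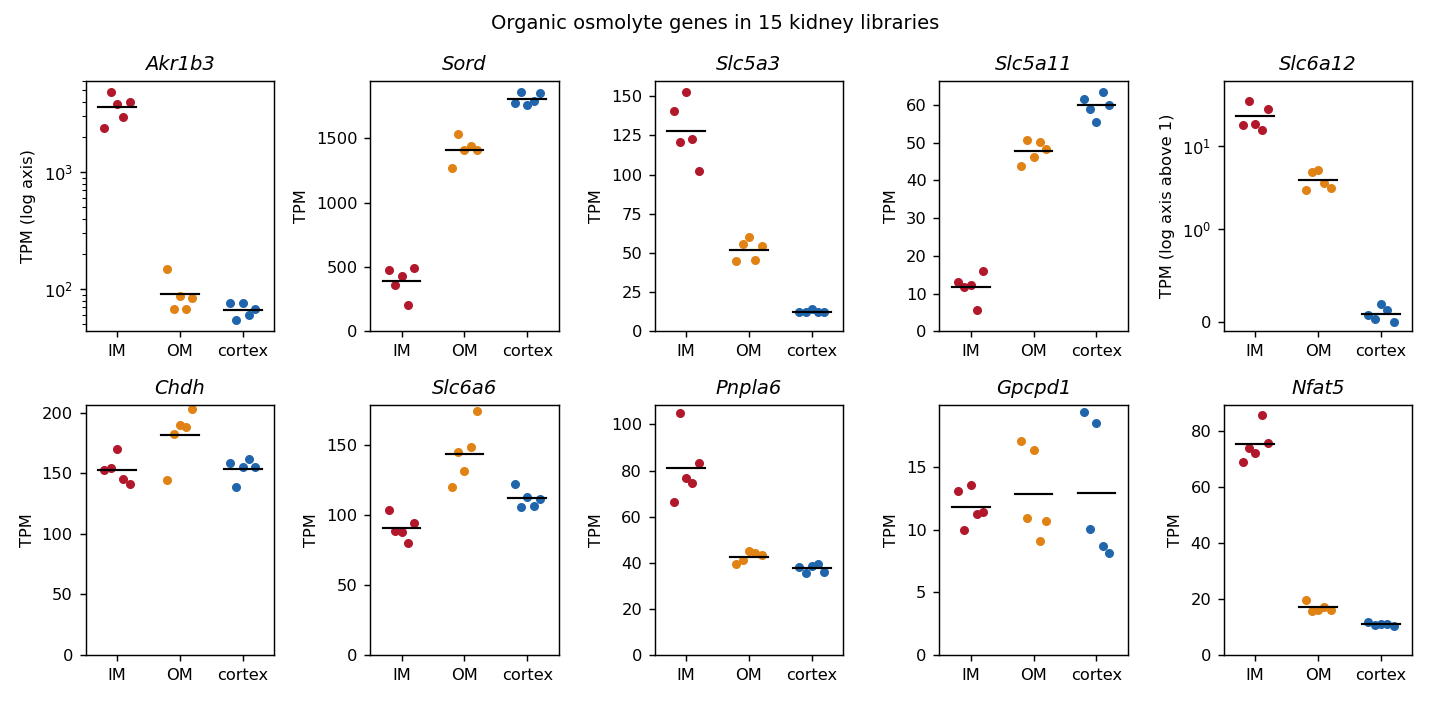
Level of each of the 10 osmolyte genes in TPM in the 5 libraries of IM, OM and cortex, 1 point per library and a bar at the zone mean; the axis is logarithmic for Akr1b3 and above 1 TPM for Slc6a12. Akr1b3, Slc5a3, Slc6a12, Pnpla6 and Nfat5 are highest in IM, Sord and Slc5a11 are lowest there, and the 3 zones of Gpcpd1 overlap.

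Sorbitol turnover showed opposite zonation of its 2 enzymes. Akr1b3, the aldose reductase that makes sorbitol from glucose, had 2394, 4814, 3853, 2950 and 3988 TPM in IM, against 148, 67.9, 87.4, 67.7 and 84.5 TPM in OM and 76.9, 54.8, 76.6, 59.7 and 67.2 TPM in cortex. Every IM library lay far above every other library, whereas OM and cortex overlapped. The mean in IM was 39.5-fold that in OM (log2 5.31, SE 0.22, adjusted p = 2.8e-11) and 53.7-fold that in cortex. OM was not called against cortex (log2 0.39, 95% interval -0.08 to 0.85, adjusted p = 0.189). OM library 1 had the highest OM value and stood apart in the urothelium, thin limb, principal cell and thick ascending limb markers. Without that library OM minus cortex was 0.20 (adjusted p = 0.421) and IM minus OM was 5.50.

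Sord, the sorbitol dehydrogenase that oxidises sorbitol to fructose, ran the other way. Its levels were 477, 356, 432, 204 and 492 TPM in IM, 1272, 1534, 1411, 1442 and 1407 TPM in OM and 1773, 1863, 1761, 1791 and 1853 TPM in cortex. No pair of zones overlapped. IM was 3.602-fold lower than OM (log2 -1.91, SE 0.18, adjusted p = 9.36e-08) and 4.61-fold lower than cortex. OM averaged 1413 ± 94.2 TPM and cortex 1808 ± 46.6 TPM (SD, n = 5 each), and this step was not called in the fit of all libraries (log2 -0.36, SE 0.18, adjusted p = 0.137). It was called when only the OM and cortex libraries were fitted (adjusted p = 0.000217) and when IM library 4 was left out (adjusted p = 0.00201). That IM library had the lowest Sord value and the lowest proximal tubule marker sums, 670 TPM for the convoluted and 444 TPM for the straight list. It also held 175 TPM of 4 adipocyte markers, against 5.06 to 25.03 TPM in the other IM libraries.

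Within a library, the ratio of Akr1b3 to Sord was 5.02 to 14.4 in IM (median 8.92), 0.0442 to 0.117 in OM (median 0.0601) and 0.0294 to 0.0435 in cortex (median 0.0363). The enzyme that makes sorbitol was thus the more abundant transcript in all 5 IM libraries and the less abundant in all 10 others.

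Of 14 neighbouring genes of sorbitol and fructose metabolism, 4 were called higher and 9 lower in IM against OM (66.4% and 17.2% of all genes). The list median was -1.30 beside 0.51 for all genes. After scaling 3 were higher and 11 lower (37.9% and 36.5% of all genes). Against cortex, OM had 2 higher and 4 lower (28.3% and 6.3% of all genes), with a median of -0.04 beside 0.11. After scaling OM had 2 higher and 5 lower (16.5% and 17% of all genes). Those lower in IM included Khk, the ketohexokinase that phosphorylates fructose (332, 1046 and 1145 TPM in IM, OM and cortex; IM minus OM -1.74, adjusted p = 2.38e-06). Akr1a1, an aldehyde reductase, fell to 862 TPM in IM and 2269 TPM in OM, against 3508 TPM in cortex, and was called in both steps. The genes called against the majority of the list were Slc2a1, the glucose transporter GLUT1 (133, 54.1 and 31.8 TPM), Hk1, a hexokinase (208, 88.7 and 38.2 TPM), Akr1b8, an aldo-keto reductase related to Akr1b3 (46.5, 4.34 and 3.41 TPM; IM minus OM 3.11, adjusted p = 1.79e-09), and Akr1b10. Akr1b10 was higher by 0.31 in IM than in OM on the TPM scale and lower by 0.23 after scaling (log2 -0.23, adjusted p = 0.0125), so its direction turns with the scale.

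**Figure D2:**
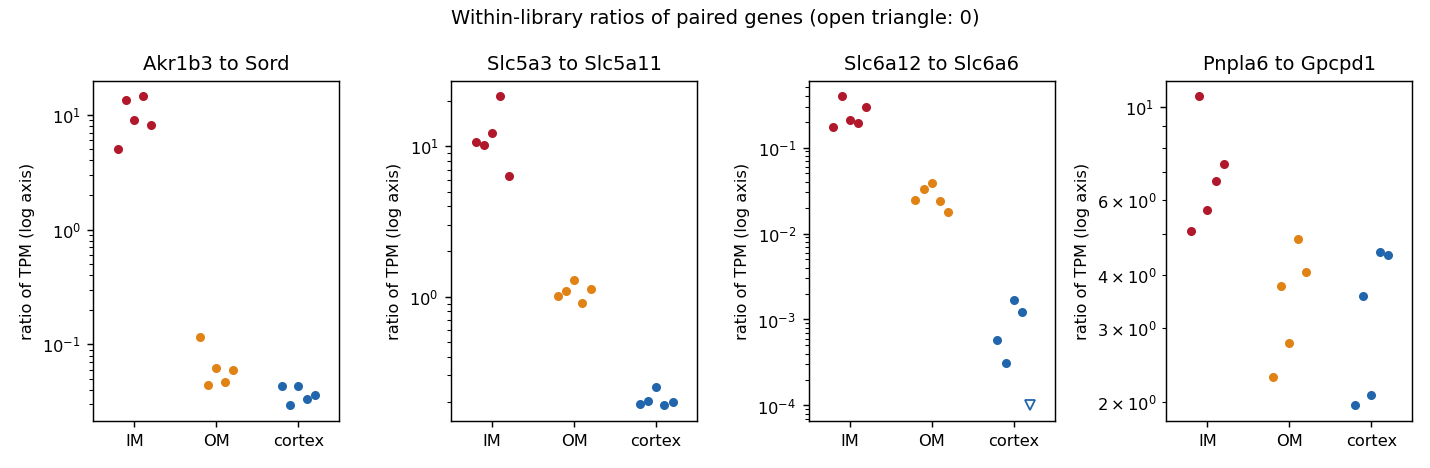
Ratio of the TPM of 2 genes within each library, on logarithmic axes, for IM, OM and cortex: Akr1b3 to Sord, Slc5a3 to Slc5a11, Slc6a12 to Slc6a6 and Pnpla6 to Gpcpd1, with an open triangle for the cortex library where Slc6a12 was 0. IM lies above OM and OM above cortex without overlap in the first 3 panels, and OM and cortex overlap in the panel of Pnpla6 to Gpcpd1.

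The 2 sodium-coupled inositol transporters were also zoned in opposite directions. Slc5a3 (SMIT1), the carrier linked to osmolyte storage, had 141, 121, 153, 122 and 103 TPM in IM, against 44.7, 55.6, 59.9, 45.5 and 54.3 TPM in OM and 12.0, 12.1, 13.9, 12.0 and 12.1 TPM in cortex. The 3 zones did not overlap. IM was 2.46-fold higher than OM (log2 1.28, SE 0.10, adjusted p = 9.51e-09), OM was 4.19-fold higher than cortex (log2 1.98, SE 0.10, adjusted p = 4.16e-09), and IM was 10.3-fold higher than cortex. The outer step was the larger of the 2, by 0.70 on the log2 scale (inner less outer step -0.70, adjusted p = 0.00272). In the reference annotation Slc5a3 lies within Mrps6, a mitochondrial ribosomal protein gene, on the same strand of chromosome 16. Mrps6 was zoned the same way, at 814 ± 67.2 TPM in IM, 327 ± 22.6 TPM in OM and 128 ± 7.83 TPM in cortex, and how reads of this overlap were counted is not given in the sources used here, so shared reads cannot be told apart.

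Slc5a11 (SMIT2), known as the inositol carrier of the proximal tubule brush border, had 13.2, 11.8, 12.4, 5.71 and 16.1 TPM in IM, against 43.9, 50.8, 46.3, 50.1 and 48.3 TPM in OM and 61.6, 59.1, 55.5, 63.5 and 59.9 TPM in cortex. Again no zones overlapped, and IM library 4 was the lowest. IM was 4.05-fold lower than OM (log2 -1.99, SE 0.18, adjusted p = 5.74e-08) and 5.06-fold lower than cortex. OM minus cortex was -0.32 (SE 0.18, adjusted p = 0.182), and it was called with OM and cortex fitted alone (adjusted p = 0.000623) or without IM library 4 (adjusted p = 0.00288). The ratio of Slc5a3 to Slc5a11 was 6.38 to 21.4 in IM, 0.907 to 1.29 in OM and 0.190 to 0.250 in cortex. By these values the carriers were close to equal in OM, with Slc5a3 in excess in IM and Slc5a11 in excess in cortex. The values of Slc5a3 may hold reads shared with Mrps6, so the ratios are those of the rows as counted.

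Among 10 genes of inositol synthesis and breakdown, 6 were called higher and 2 lower in IM against OM, near the 66.4% and 17.2% of all genes. The list median was 0.35 beside 0.51 for all genes. After scaling 3 were higher and 4 lower, again near the shares of all genes (37.9% and 36.5%). Isyna1, which makes inositol phosphate from glucose-6-phosphate, had 242 TPM in IM, 80.5 TPM in OM and 52.9 TPM in cortex (IM minus OM 1.57, adjusted p = 1.36e-10; 1.03 after scaling). Miox, the oxygenase that opens the inositol ring in its breakdown, had 660 TPM in IM, against 3209 TPM in OM and 5597 TPM in cortex (IM minus OM -2.32, adjusted p = 7.64e-10). Cdipt, which joins inositol to the lipid backbone, stood at 150, 82.6 and 71.3 TPM and was called higher in IM on both scales. Impa1, an inositol monophosphatase, was 59.9, 52.7 and 54.1 TPM, called higher in IM over OM on the TPM scale (0.18, adjusted p = 0.0132) and lower after scaling (-0.35, adjusted p = 0.000181). In OM against cortex 4 of the 10 were higher and 2 lower (28.3% and 6.3% of all genes), with a median of 0.13 beside 0.11. The balance turned after scaling, with 2 higher and 3 lower (16.5% and 17% of all genes).

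For betaine, the carrier was zoned far more steeply than the enzyme. Slc6a12 (BGT1), which takes up betaine and GABA, had 18.0, 34.8, 18.5, 15.5 and 27.7 TPM in IM and 2.98, 4.80, 5.15, 3.56 and 3.09 TPM in OM. In cortex it had 0.07, 0.03, 0.19, 0.13 and 0.00 TPM. The zones did not overlap, and cortex was close to none: its 5 libraries held 12 reads in all (95% Poisson interval 6.201 to 20.96, counting error only), against 2837 in IM and 507 in OM. IM was 5.85-fold higher than OM (log2 2.24, SE 0.19, adjusted p = 1.67e-08), and OM averaged 46.2-fold the cortex mean (log2 2.16, SE 0.19, adjusted p = 7.68e-07), a ratio that rests on those 12 reads. The log2 value of the outer step is much smaller than the ratio of means because 1 TPM was added before taking logs. With 0.1 TPM added instead, the inner step was smaller than the outer by 2.02 (inner less outer step -2.02, adjusted p = 0.00253), against 0.08 (adjusted p = 0.836) with 1 TPM, and after scaling it was -0.49 (adjusted p = 0.234). Which step of Slc6a12 is larger thus depends on these choices.

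Chdh, the mitochondrial choline dehydrogenase that starts betaine synthesis, had 153, 155, 171, 145 and 141 TPM in IM, against 144, 183, 190, 189 and 204 TPM in OM and 158, 139, 155, 162 and 155 TPM in cortex. IM and cortex overlapped throughout, and the OM values were higher in all libraries but library 1. OM minus cortex was 0.23 (SE 0.08, adjusted p = 0.0376) and IM minus OM was -0.24 (SE 0.08, adjusted p = 0.0118), while IM minus cortex was -0.01 (95% interval -0.18 to 0.16, adjusted p = 0.906). OM was not called over cortex after scaling (0.08, adjusted p = 0.496). Without OM library 2, 3, 4 or 5 or cortex library 2, 3 or 5 the difference stayed at 0.19 to 0.24, with an adjusted p of 0.0609 to 0.101. Without OM library 1 it was 0.31 (adjusted p = 0.00127). After scaling, IM was lower than OM by 0.78 (log2 -0.78) and lower than cortex by 0.71 (log2 -0.71, adjusted p = 8.39e-07).

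All 16 other genes of choline and betaine metabolism were called in IM against OM, 5 higher and 11 lower (66.4% and 17.2% of all genes). The list median was -1.35 beside 0.51 for all genes. The counts were the same after scaling, beside 37.9% and 36.5% of all genes. Aldh7a1, which oxidises betaine aldehyde to betaine, was among those lower (99.6, 227 and 280 TPM in IM, OM and cortex; IM minus OM -1.19, adjusted p = 1.44e-09). So were the organic cation carrier Slc22a2 (120, 378 and 303 TPM) and Bhmt2, a methyltransferase related to the enzyme that consumes betaine (59.6, 175 and 133 TPM). The genes called higher in IM were Slc44a1, Slc44a2, Slc44a3, Slc25a48 and Flvcr1. Of these, Slc44a1 and Slc44a2 are choline transporter-like proteins of the cell membrane and had 67.9 and 91.7 TPM in IM, 15.9 and 22.4 TPM in OM, and 10.01 and 17.9 TPM in cortex. In OM against cortex, 2 of the 16 were higher and 3 lower (28.3% and 6.3% of all genes), with a median of -0.06 beside 0.11. After scaling 1 was higher and 5 were lower (16.5% and 17% of all genes).

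The taurine carrier had its highest mean in OM. Slc6a6 (TauT), the sodium- and chloride-coupled taurine carrier, had 104, 88.6, 87.6, 79.9 and 93.9 TPM in IM, against 120, 145, 132, 148 and 174 TPM in OM and 122, 106, 113, 107 and 111 TPM in cortex. All IM values lay below all others, and the lowest OM value, that of library 1, lay within the cortex range. IM was 1.59-fold lower than OM (log2 -0.65, SE 0.09, adjusted p = 4.25e-06) and 1.23-fold lower than cortex (log2 -0.30, SE 0.09, adjusted p = 0.00482); after scaling these differences were -1.19 and -0.99 (adjusted p = 2.99e-08 and 1.58e-07). OM was higher than cortex by 0.35 (SE 0.09, adjusted p = 0.00604), a call lost after scaling (0.20, adjusted p = 0.139). Among the textbook NFAT5 targets in this set, Slc6a6 was the only one lower in IM. The ratio of Slc6a12 to Slc6a6 was 0.174 to 0.393 in IM, 0.0178 to 0.0391 in OM and at most 0.00168 in cortex, so the taurine carrier was the more abundant transcript of the 2 in every library.

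Of 12 genes of taurine synthesis and related carriers, 9 were tested, and 1 was higher and 8 lower in IM against OM (66.4% and 17.2% of all genes). The list median was -1.16 beside 0.51 for all genes. The counts were the same after scaling, beside 37.9% and 36.5% of all genes. Csad, the decarboxylase that makes hypotaurine, and Cdo1, the cysteine dioxygenase before it, were highest in OM like Slc6a6. Csad had 159 TPM in IM, 318 TPM in OM and 191 TPM in cortex (OM minus cortex 0.73, adjusted p = 0.00231), and Cdo1 had 191, 237 and 131 TPM (OM minus cortex 0.85, adjusted p = 2.6e-06). Slc6a13, a GABA carrier that also takes taurine, likewise stood at 79.4, 216 and 121 TPM, though its rise in OM over cortex (0.86, adjusted p = 0.0214) was not called after scaling (adjusted p = 0.0679). The gene higher in IM was Ado, a thiol dioxygenase (22.2, 10.6 and 9.86 TPM). In OM against cortex 3 of the 9 were higher and 2 lower (28.3% and 6.3% of all genes), with a median of 0.00 beside 0.11. After scaling 2 were higher and 2 lower (16.5% and 17% of all genes).

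For glycerophosphocholine, the enzyme on the making side was higher in IM. Pnpla6 (neuropathy target esterase), a phospholipase that releases glycerophosphocholine from phosphatidylcholine, had 66.3, 105, 76.9, 74.7 and 83.2 TPM in IM, against 39.3, 41.0, 45.0, 44.4 and 43.4 TPM in OM and 38.0, 35.7, 38.4, 39.5 and 36.01 TPM in cortex. All IM values lay above all others, and OM and cortex overlapped. IM was 1.91-fold higher than OM (log2 0.90, SE 0.09, adjusted p = 1.53e-07) and 2.17-fold higher than cortex. Relative to the typical gene this was smaller, 0.36 over OM (adjusted p = 0.00161) and 0.39 over cortex (adjusted p = 0.000845) after scaling. OM minus cortex was 0.18 (adjusted p = 0.148), and it was called with these zones fitted alone (adjusted p = 0.0157) or without IM library 2 (adjusted p = 0.0361).

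Gpcpd1, a phosphodiesterase that breaks glycerophosphocholine down, differed more between library numbers than between zones. It had 13.04, 9.94, 13.5, 11.2 and 11.4 TPM in IM, against 17.1, 10.9, 16.4, 9.11 and 10.7 TPM in OM and 19.4, 10.01, 18.5, 8.70 and 8.10 TPM in cortex. Libraries 1 and 3 were the highest pair in each of the 3 zones, and in cortex no other library came near them. Zone means were 11.8 ± 1.46, 12.8 ± 3.63 and 12.9 ± 5.53 TPM (SD, n = 5 each). On the TPM scale no comparison was called, with IM minus OM at -0.08 (95% interval -0.58 to 0.43, adjusted p = 0.765), OM minus cortex at 0.04 (-0.47 to 0.54, adjusted p = 0.919) and IM minus cortex at -0.04 (-0.54 to 0.47, adjusted p = 0.881). After scaling IM was lower, by 0.57 than OM (log2 -0.57, adjusted p = 0.0426) and by 0.68 than cortex (log2 -0.68, adjusted p = 0.0181). The ratio of Pnpla6 to Gpcpd1 was 5.08 to 10.6 in IM, 2.30 to 4.87 in OM and 1.96 to 4.53 in cortex.

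**Figure D3:**
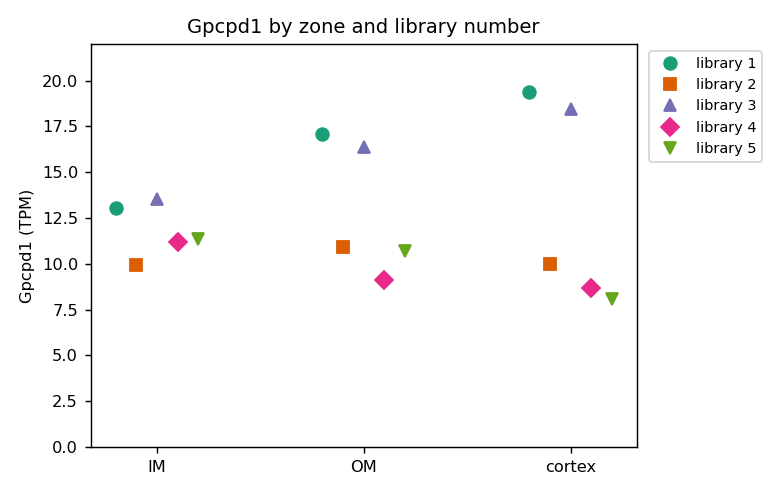
Level of Gpcpd1 in TPM in IM, OM and cortex, with 1 symbol per library and the same symbol for the same library number in each zone. Libraries 1 and 3 are the highest pair in every zone, at 13.04 and 13.5 TPM in IM, 17.1 and 16.4 in OM and 19.4 and 18.5 in cortex.

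Of 23 genes of glycerophosphocholine and phosphatidylcholine turnover, 19 were tested, with 9 higher and 6 lower in IM against OM (66.4% and 17.2% of all genes). The list median was 0.39 beside 0.51 for all genes. After scaling 6 were higher and 9 lower (37.9% and 36.5% of all genes). Chpt1, which completes phosphatidylcholine synthesis, had 438 TPM in IM, 1080 TPM in OM and 813 TPM in cortex (IM minus OM -1.35, adjusted p = 1.86e-06). The largest of the named differences was that of Enpp6, a choline-specific glycerophosphodiesterase, with 3.25 TPM in IM, 23.1 TPM in OM and 50.6 TPM in cortex (IM minus OM -2.50, adjusted p = 1.06e-09; OM minus cortex -1.13, adjusted p = 7.93e-05). Gde1, another glycerophosphodiesterase, stood at 121, 162 and 164 TPM and was lower in IM than in OM by 0.43 (log2 -0.43, adjusted p = 2.19e-06). Lypla1, a lysophospholipase, had 146, 302 and 214 TPM, and the related Lypla2 had 128, 76.0 and 81.5 TPM, lower and higher in IM than in OM on both scales. In OM against cortex 6 of the 19 were higher and 2 lower (28.3% and 6.3% of all genes), with a median of 0.10 beside 0.11. The balance turned after scaling, with 4 higher and 7 lower (16.5% and 17% of all genes).

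Nfat5, the tonicity factor itself, followed the axis inward. It had 69.1, 74.0, 72.2, 85.7 and 75.8 TPM in IM, against 19.7, 15.8, 16.1, 17.3 and 16.1 TPM in OM and 11.9, 10.6, 11.1, 11.1 and 10.2 TPM in cortex. The zones did not overlap, and OM library 1 was the highest of its zone. IM was 4.43-fold higher than OM (log2 2.09, SE 0.07, adjusted p = 1.24e-12), OM was 1.55-fold higher than cortex (log2 0.58, SE 0.07, adjusted p = 1.47e-05), and IM was 6.86-fold higher than cortex. The 3 differences kept their direction and call after scaling, at 1.55, 0.44 and 2.00. Without OM library 1 the outer step was 0.53 (adjusted p = 2.66e-05).

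Among 23 other genes known to respond to NFAT5 or to tonicity, 19 were called higher and 1 lower in IM against OM (66.4% and 17.2% of all genes). The list median was 2.34 beside 0.51 for all genes. In OM against cortex 13 were higher and 0 lower (28.3% and 6.3% of all genes), with a median of 0.44 beside 0.11. After scaling the counts were 16 and 5 (37.9% and 36.5% of all genes), and 9 and 0 (16.5% and 17%). At an unadjusted limma p under 0.05, the genes lower in OM than in cortex were 0 on the TPM scale and 2 (Fxyd2, Hmox1) after scaling. Aqp2, the vasopressin-regulated water channel, had 7744 TPM in IM, 465 TPM in OM and 233 TPM in cortex. Cryab, a small heat shock protein, had 5533, 313 and 49.8 TPM, and Hsph1, a chaperone of the HSP110 family, had 537, 72.0 and 61.2 TPM. Aqp2 also stands in the principal cell list and Cryab in the thin limb list, where each makes up most of the sum in IM. The 5 principal cell markers outside the tonicity list summed to 2294 to 3786 TPM in IM, 520 to 745 in OM and 402 to 462 in cortex, and the 3 such thin limb markers to 223 to 326, 14.3 to 33.5 and 1.23 to 2.70 TPM. Hmox1, the haem oxygenase, went against the list with 16.8, 30.6 and 37.8 TPM (IM minus OM -0.84, adjusted p = 0.000743). Fxyd2 and Atp1b1 are subunits of the sodium pump, and their result turned on the scale. Fxyd2 had 4477, 4571 and 4793 TPM and was not called between IM and OM on the TPM scale (-0.04, adjusted p = 0.676). After scaling Fxyd2 was called lower in IM (log2 -0.58, adjusted p = 2.72e-05). Atp1b1 was higher in IM than in OM by 0.21 on the TPM scale and lower after scaling (log2 -0.33, adjusted p = 0.00161), and Aqp1 was 0.31 on the TPM scale and -0.23 after scaling.

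Of 20 genes of the NFAT family and of candidate NFAT5 regulators, 18 were called higher and 2 lower in IM against OM (66.4% and 17.2% of all genes). The list median was 0.63 beside 0.51 for all genes. After scaling the counts were 10 and 4 (37.9% and 36.5% of all genes). The 2 lower genes were Mapk14, the p38 kinase (70.6, 76.3 and 79.9 TPM in IM, OM and cortex), and Wnk1, a kinase of salt handling (38.8, 47.2 and 76.0 TPM). In OM against cortex 5 were higher and 1, Wnk1, lower (-0.68, adjusted p = 0.000168), beside 28.3% and 6.3% of all genes. After scaling 5 were higher and 3 lower (16.5% and 17% of all genes). Against this list, the inner step of Nfat5 itself was 2.09.

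**Figure D4:**
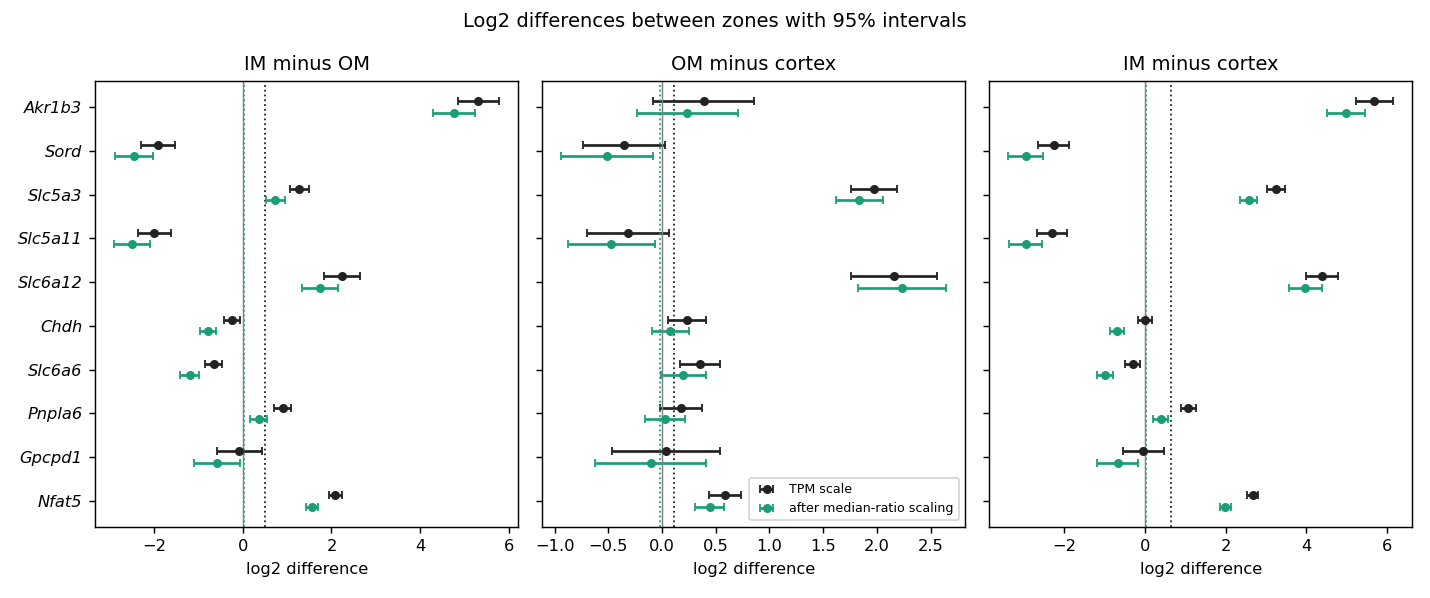
Log2 differences of the 10 osmolyte genes with 95% intervals for IM minus OM, OM minus cortex and IM minus cortex, on the TPM scale (black) and after median-ratio scaling (green), with dotted lines at the median of all tested genes. Scaling shifts every gene to the left in the panels with IM; Akr1b3, Slc5a3, Slc6a12, Pnpla6 and Nfat5 stay above 0 there, and Sord, Slc5a11 and Slc6a6 below it.

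Setting the inner step (IM minus OM) against the outer step (OM minus cortex) separated the genes by where along the axis they changed. The difference of the steps was called higher for 3 genes, Akr1b3 (4.92, adjusted p = 2.54e-07), Nfat5 (1.502, adjusted p = 2.11e-07) and Pnpla6 (0.72, adjusted p = 0.000951), with 50.6% of all genes. It was called lower for 5, Slc5a11 (-1.67, adjusted p = 0.000283), Sord (-1.55, adjusted p = 0.000538), Slc6a6 (-1.01, adjusted p = 5.33e-05), Slc5a3 (-0.70) and Chdh (-0.47, adjusted p = 0.00808), with 15% of all genes. After scaling 2 were higher and 5 lower, with 26.6% and 26.9% of all genes, and the difference for Pnpla6 was no longer called (0.34, adjusted p = 0.0753). The steps share the OM libraries, so the 2 values of a gene are not independent. Akr1b3 and Slc5a3, both NFAT5 targets, thus differed in shape: nearly all of the change of Akr1b3 lay between OM and IM, whereas Slc5a3 changed more between cortex and OM than between OM and IM.

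**Figure D5:**
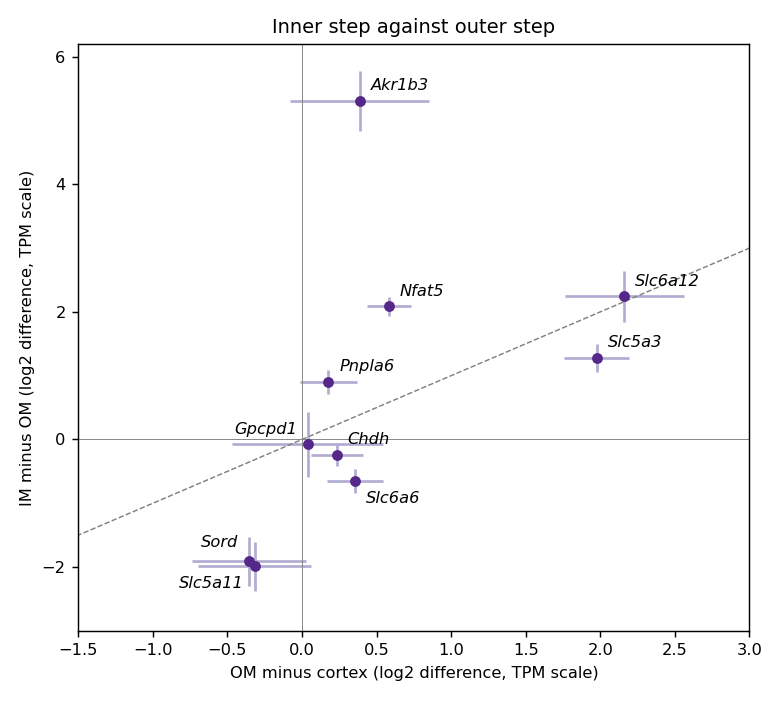
Inner step (IM minus OM) against outer step (OM minus cortex) as log2 differences on the TPM scale for the 10 osmolyte genes, with 95% intervals and a dashed line where both steps are equal. Akr1b3 (0.39 outer, 5.31 inner) lies far above the line, Slc5a3 (1.98 outer, 1.28 inner) below it, and Sord and Slc5a11 lie together at the lower left.

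The order of levels differed between zones. In IM the mean of Akr1b3 (3600 ± 944 TPM) was above that of every other osmolyte gene, followed by Sord (392 ± 118 TPM), Chdh (153 ± 11.2 TPM) and Slc5a3 (128 ± 19.3 TPM). Chdh and Slc5a3 overlapped in IM. In OM and in cortex Sord came first, followed by Chdh and Slc6a6, and Slc6a12 came last. Slc6a6 and Chdh overlapped in OM (120 to 174 and 144 to 204 TPM), while in cortex they did not (106 to 122 and 139 to 162 TPM). The lowest in IM were Gpcpd1 (9.94 to 13.5 TPM) and Slc5a11 (5.71 to 16.1 TPM), which overlapped.

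Together, the 4 osmolyte transporters summed to 253 ± 21.6 TPM in IM, 248 ± 24.5 TPM in OM and 184 ± 7.10 TPM in cortex (SD, n = 5 each). The sums of IM (224 to 275 TPM) and OM (212 to 280 TPM) overlapped, and both lay above cortex (177 to 196 TPM). After median-ratio scaling the order turned: the sum was 189 ± 21.7 in IM (155 to 213), 269 ± 25.3 in OM (233 to 302) and 223 ± 7.90 in cortex (217 to 236), with IM below both other zones and OM overlapping cortex. On the TPM scale Slc5a3, with any reads shared with Mrps6, held 50.5% of the sum in IM, 20.99% in OM and 6.74% in cortex. Slc6a12 held 9.04%, 1.58% and 0.0461%. The share of Slc6a6 was 35.8% in IM, 58.1% in OM and 60.7% in cortex, and that of Slc5a11 was 4.67%, 19.3% and 32.5%.

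The genes whose pattern was most like each osmolyte gene were those with the smallest root mean square (RMS) difference of log2(TPM + 1), centred on the mean of each gene, over the 15 libraries. They were taken from genes of at least 20 TPM in their highest zone. For Akr1b3 they included Lamb3 (RMS 0.23) and Rasal1, both low outside IM; Lamb3 had 112, 1.57 and 0.661 TPM in IM, OM and cortex, and OM library 1 was its highest OM value too (2.78 TPM). For Sord they were Tinag (RMS 0.046), Tmem174 and Pecr, and the same 3 genes came first for Slc5a11, so these 2 osmolyte genes shared 1 pattern: Tinag stood at 27.6, 105 and 135 TPM with its lowest value, 14.1 TPM, in IM library 4. For Slc5a3 they were P2ry2 (RMS 0.22), Cxcl12 and Foxc1, and for Slc6a12 they included Rhof (RMS 0.32) and Alx1. Alx1 was as restricted as Slc6a12, at 34.0, 4.86 and 0.108 TPM. For Nfat5 they were Zmynd8 (RMS 0.089), Hdac7 and Adgrf5. For Slc6a6 they were Acad12, Slc35a3 and Tmbim6, for Chdh Kat2b, Lclat1 and Dlat, and for Pnpla6 Utp4, Dlg5 and Hspa4. Gpcpd1 was most like Cep85 (RMS 0.18), Larp4b and B4galt1, against a spread of its own of 0.36. Cep85 too was highest in libraries 1 and 3 of OM (29.9 and 31.5 TPM) and cortex (35.1 and 33.4 TPM). The points share libraries, so these values describe likeness in this table only.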

How the data were processed

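RNA of dissected kidney zones, extracted with phenol and chloroform, was sequenced in pairs on an Illumina machine, per the labels. A single table of TPM by gene symbol was deposited. Per the submitters' processing notes, the aligner was STAR and the build mm9. How reads were counted, with which annotation and strand rule, is not given in the sources used here, so no coordinates of the table are used, and printed sequences come from GRCm38. Whole reads were recovered from the TPM ratios between libraries (100% of 19997 genes seen in 2 or more libraries, tolerance 0.001).

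Genes of at least 1 TPM in at least 5 libraries (15052) were fitted as log2(TPM + 1) with limma 3.58.1 in R 4.3.3 (statmod 1.5.0), all 15 libraries together, zone as the only factor, empirical Bayes with trend and robust settings, Benjamini-Hochberg over all genes tested, two-sided. Adding 1 TPM understates changes of low genes. The fit was tested on simulated data in which a small share of genes was changed, in IM only, with no shift of the typical gene. That setting does not cover differences as widespread as those between these zones. Alternatives were a pseudocount of 0.1, no filter, median-ratio scaling, quantile normalization, a replicate block, only the zones compared, and each library left out.

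The members and lists were chosen with earlier results of these data known. The text names all 10 members, and per pathway list up to 6 genes of at least 20 TPM in the highest zone plus genes called against their list's majority, some of which are not reported here; Mrps6 and Gm6644 were added for shared reads after their values were seen. Samples were grouped by their labels.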

Additional observations from a re-analysis of the deposited data

Results flagged for a closer look

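Of 30 groups of 5 libraries (10 genes in 3 zones), 2 held a library far from the others, where chance gives about 1 in 20. Akr1b3 in OM library 1 was 148.2 TPM, against 67.7 to 87.4 TPM in the other OM libraries, a gap of 0.756 of the range. That library also held the highest OM sums of urothelium (78.1 TPM), thin limb (663 TPM) and principal cell markers (1275 TPM). Its sums of thick ascending limb (3123 TPM) and convoluted proximal tubule markers (4113 TPM) were the lowest in OM. The part of these cell types in the value was not tested. Slc5a3 in cortex library 3 was 13.88 TPM, against 12.0 to 12.1 TPM in the other cortex libraries, a gap of 0.966 of the range, which is narrow because the other 4 values nearly coincide.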

How the results depend on the processing

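Over 830 values of the 10 genes under alternatives, 782 kept direction and side of the threshold, 12 lost a call, 11 gained one and 25 changed sign. In part of these fits the log2 difference cannot change, and only the call can. These are the replicate block, no filter, only the zones compared, and zone comparisons without a library of the zone not compared. Median-ratio scaling left 3 genes called higher in OM against cortex and 5 called lower in IM against cortex. Fitting only the zones compared gave 2 genes lower in OM against cortex, and leaving out 1 library 0 to 2, with 2 (Sord, Slc5a11) without IM replicate 4. Values that changed sign were near 0 in the main fit, though not always under the alternative. Gpcpd1 in OM minus cortex was -0.11 after scaling and -0.13 after quantile normalization. With 1 library left out, Gpcpd1 ran from -0.09 to 0.20 in OM minus cortex, -0.18 to 0.03 in IM minus OM, -0.17 to 0.12 in IM minus cortex and -0.32 to 0.10 in the difference of steps; Chdh in IM minus cortex ran from -0.05 to 0.02. The difference of steps of Slc6a12 was called with a pseudocount of 0.1 (-2.02, adjusted p = 0.00253). It was -0.49 after scaling, -0.37 after quantile normalization and -0.08 to 0.26 with 1 library left out. The cause was not tested beyond these settings. The call of Chdh in OM over cortex (0.23, adjusted p = 0.0376) was lost without the filter (0.23, adjusted p = 0.0502) and after quantile normalization (0.17, adjusted p = 0.117). It was also lost in 7 of the fits with 1 library left out (0.19 to 0.24), each with 4 genes higher in that comparison. Over all fits with 1 library left out, 4 to 6 genes were higher there, with 6 without IM replicate 2. Quantile normalization called Gpcpd1 lower in IM than in OM (-0.75, adjusted p = 0.00841). With the replicate block, all 40 values kept their call, and 5524 genes were called in OM against cortex, against 5216 without it. Deviations of same-numbered libraries correlated over 0.1 in 8 of 15 pairs across zones (-0.0268 to 0.262), and in 10 of the 15 the own number correlated best. If numbers were not shared, each of the 5 candidate libraries of a zone would be equally likely to correlate best. These counts are a hint from the data that numbers are shared. The 15 pairs reuse the same libraries, and what a shared number would stand for is not stated. Not every pair passed 0.1, but that limit does not decide whether libraries are paired. Because the labels state no pairing, the fit without the block was kept, also for Gpcpd1. Depth limits Slc6a12 in cortex (12 reads).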
